A study of Mus musculus with 8 samples.

Results

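Retained-intron transcripts are annotated isoforms of a gene that keep sequence which its other isoforms splice out, and they were taken here as all transcripts of the deposited table with that annotated type. They were 18246 of the 74764 transcripts and belonged to 8023 of 19558 genes. The table came from 8 mouse hippocampus RNA-seq libraries, 4 from animals given KU55933, a blocker of the DNA damage kinase ATM, and 4 from animals given vehicle. All were wild-type C57BL/6 KP mice at postnatal day 40, dosed through the nose under anaesthesia at 7.5 mg/kg, and the vehicle was 4% DMSO in saline. The study asks how loss of ATM activity affects glutamate signalling through the chloride transporter KCC2 and kainate receptors. The time between dosing and collection is not given in the sources used here. Every sample is labelled hippocampus, although the library protocol states RNA inputs for hypothalamus and PFC, and all 10 markers of hippocampal neurons had counts in the data, at a summed 1309 to 1640 CPM (counts scaled to a common library total) in vehicle and 1216 to 1557 CPM in KU55933. Markers of hypothalamus or PFC were not counted, so these values do not tell the tissues apart. The labels give 4 mice for each group but do not say which replicate numbers are separate animals, so p-values measure the spread between these libraries, which may be technical.

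An intron is removed by the spliceosome, which recognises a 5′ splice site that almost always begins with GT and a 3′ splice site that ends with AG after a pyrimidine-rich stretch. A transcript that keeps an intron is often held in the nucleus or degraded, and neurons are known to hold pools of such transcripts that can be spliced later. Kinases of the CLK family, SR proteins and several hnRNP proteins are textbook cases in which retention of particular introns tunes the amount of protein made.

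The annotated type covers several structures, and the sequences below show those on which the results turn. They were read from the reference transcripts (GENCODE mouse release 21, build GRCm38), and coordinates are in that build, whereas the submitters' processing notes name GRCm39. Capitals mark bases that are exon in other transcripts of the gene, and lower case marks unspliced bases, that is, bases outside those exons or within an intron of another transcript. The first 7 transcripts rose in share and were chosen after their values were seen, to show transcripts that begin inside an intron: each line gives the last 30 unspliced bases of that start and the first 15 exon bases after it. All 7 windows end their unspliced part with ag, the end of a 3′ splice site. This largely follows from the choice, since each window runs from an intron into an exon of other transcripts.
Uchl1 ENSMUST00000176015, chr5:66676914-66676958, plus strand: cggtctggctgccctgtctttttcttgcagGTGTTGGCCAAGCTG
Rps16 ENSMUST00000155805, chr7:28350962-28351006, plus strand: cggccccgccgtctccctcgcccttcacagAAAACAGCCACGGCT
Rpl13a ENSMUST00000210792, chr7:45126813-45126857, minus strand: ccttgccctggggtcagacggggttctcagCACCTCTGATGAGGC
Rgs14 ENSMUST00000135851, chr13:55379273-55379317, plus strand: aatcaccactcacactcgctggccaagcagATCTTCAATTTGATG
Twf2 ENSMUST00000217523, chr9:106212226-106212270, plus strand: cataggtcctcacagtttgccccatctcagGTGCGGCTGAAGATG
Ppdpf ENSMUST00000135011, chr2:181187974-181188018, plus strand: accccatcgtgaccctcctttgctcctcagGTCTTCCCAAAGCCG
Coro1a ENSMUST00000133718, chr7:126701082-126701126, minus strand: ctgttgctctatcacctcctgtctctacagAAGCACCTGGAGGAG

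A different structure holds a complete intron between exons that are joined in other isoforms. The Slc17a7 transcript with the most counts keeps one of 231 bases, and a falling Ppdpf transcript keeps one of 72 bases. Both begin with gt and end with ag, and 15 exon bases are shown on either side.
Slc17a7 ENSMUST00000210540, chr7:45169571-45169831, plus strand: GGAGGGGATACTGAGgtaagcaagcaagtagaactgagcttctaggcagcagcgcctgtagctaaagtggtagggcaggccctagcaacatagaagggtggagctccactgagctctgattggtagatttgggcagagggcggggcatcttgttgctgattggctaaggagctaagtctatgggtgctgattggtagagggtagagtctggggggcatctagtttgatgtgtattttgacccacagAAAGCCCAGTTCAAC
Ppdpf ENSMUST00000146089, chr2:181187722-181187823, plus strand: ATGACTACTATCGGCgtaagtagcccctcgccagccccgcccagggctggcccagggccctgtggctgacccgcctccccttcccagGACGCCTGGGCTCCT

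Clk1 and Clk4 encode paralogous kinases that phosphorylate SR proteins, and their main retained-intron transcripts keep neighbouring introns of 871 and 387 bases in Clk1 and of 1055 and 391 bases in Clk4. The 5′ junctions are shown with 10 exon and 20 intron bases, because those of the second intron are identical at 29 of 30 positions and those of the first at 17 of 30.
Clk1 ENSMUST00000129577, first intron, chr1:58421063-58421092, minus strand: TTCACACGGGgtatgagtgccttttaaacg
Clk4 ENSMUST00000148467, first intron, chr11:51272013-51272042, plus strand: GTCGCATTCGgtatgagtggtttgttttta
Clk1 ENSMUST00000129577, second intron, chr1:58420101-58420130, minus strand: AGTGCAAGATgtatagaatatttttcaaca
Clk4 ENSMUST00000148467, second intron, chr11:51273159-51273188, plus strand: AGAGCAAGATgtatagaatatttttcaaca

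Over all retained-intron transcripts with a structure in the reference (18203), 9302 distinct introns were kept whole. Of these, 97.6% ran from GT to AG and 1.41% from GC to AG, and their median length was 292 bases.

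Retained-intron transcripts made up 2.77, 3.70, 3.85 and 4.07% of all estimated counts in vehicle libraries 1 to 4, and 2.07, 4.12, 3.35 and 4.16% in KU55933 libraries 1 to 4. Library 1 was the lowest of each group, and the groups overlapped. The means were 3.59% ± 0.571 (SD, n = 4) in vehicle and 3.42% ± 0.978 (SD, n = 4) in KU55933, which did not differ beyond the spread between libraries (exact two-sided permutation test over 70 arrangements, p = 0.771; the smallest p this design allows is 0.0286). The share of a gene's counts in its retained-intron transcripts was averaged over the 7186 genes that carry such a transcript and have at least 50 counts in every library. It was 9.17% ± 0.918 (SD, n = 4) in vehicle and 9.26% ± 1.94 (SD, n = 4) in KU55933 (exact permutation test, p = 0.943). The difference in the percent of all counts turned from -0.172 to 0.28 percentage points without KU55933 1. Without library 1 of both groups it was 0.00486, at 3.87% ± 0.186 and 3.87% ± 0.456 (SD, n = 3 each; exact permutation test, p = 1, smallest possible 0.1). The difference in the mean share over genes turned negative when vehicle 1 (-0.351), KU55933 2 (-0.471) or KU55933 4 (-0.276) was left out.

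**Figure D1:**
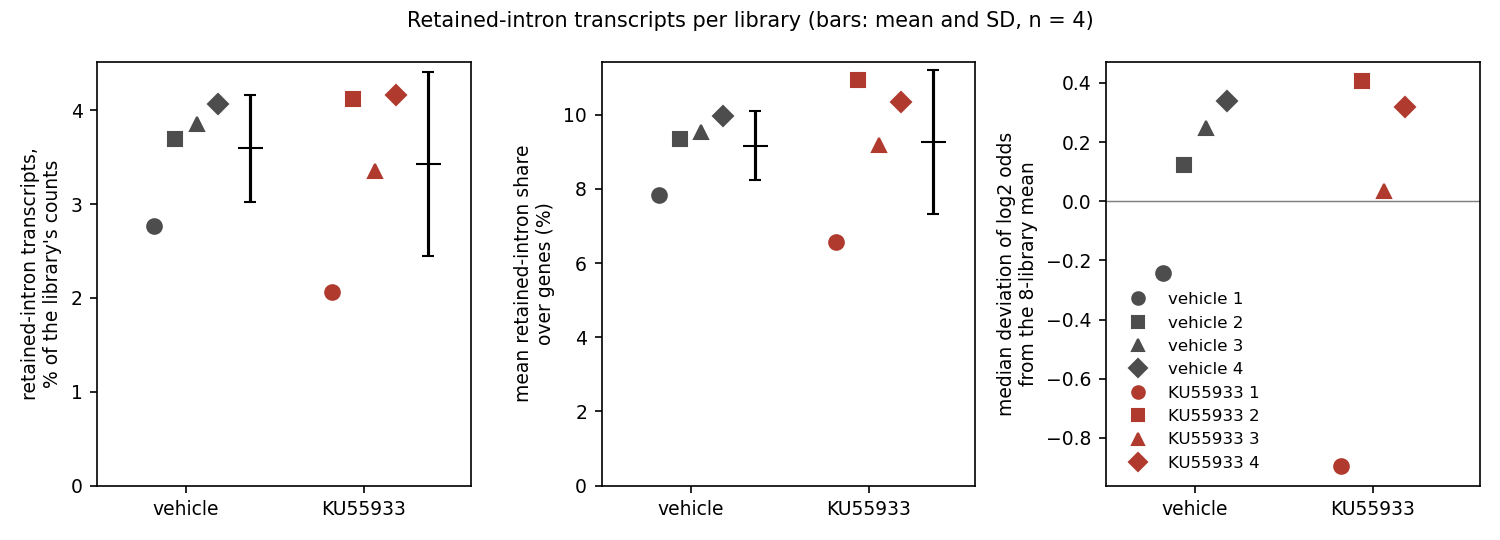
Retained-intron transcripts in each library: percent of all estimated counts (left), mean share over 7186 genes in percent (middle) and median deviation of the log2 odds from the mean of the 8 libraries (right). Black bars give the group mean and SD of 4 libraries; KU55933 1 is the lowest library in all 3 panels, at 2.07%, 6.56% and -0.90.

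KU55933 1 stood apart from the other 7 libraries in these transcripts. Its log2 odds, the log2 ratio of a transcript's counts to the counts of the rest of its gene, lay a median 0.90 below the mean of the 8 libraries over the tested retained-intron transcripts, a deviation of -0.90. Vehicle 1 deviated by -0.24 and the others by 0.03 to 0.41. It was the lowest of the 8 libraries for 56.9% of the tested retained-intron transcripts and for 63.4% of the tested genes. Markers of choroid plexus, the secretory epithelium next to the hippocampus, were present in all libraries (10 of 10 genes) at a summed 54.9 to 114 CPM in vehicle and 62.4 and 78.5 CPM in KU55933 4 and 3, against 1146 and 1306 CPM in KU55933 1 and 2. Mitochondrially encoded transcripts held 4.58% ± 0.168 of the counts in vehicle and 5.27% ± 0.184 in KU55933 (SD, n = 4 each; exact permutation test, p = 0.0286, the smallest possible). The part of these differences in the results below was not tested beyond the values without the libraries. In tissue RNA, a change in the make-up of cells and a change in RNA per cell cannot be told apart.

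The counts were spread over many genes. Of the 18246 transcripts, 18215 had at least 1 count and 31 had none. The 20 genes with the most retained-intron counts held 9.80% of them, the first 100 genes 26.7%, and 381 genes held 50%. Among the 7121 genes that carry a retained-intron transcript and have a mean of at least 100 counts, the median share was 3.08%. Of these, 4267 genes were under 5% and 234 were above 50%. For 56 genes the table listed retained-intron transcripts only, which fixes their share at 100%, and such genes were not left out of these numbers.

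Several of the 20 leading genes encode splicing or RNA-binding proteins. Snrnp70 encodes the 70K protein of the U1 particle, which binds the 5′ splice site, and had a mean of 9742 retained-intron counts. Its share was 69.9, 81.5, 75.3 and 76.9% in vehicle and 63.0, 84.3, 79.3 and 83.7% in KU55933, so the groups overlapped and KU55933 1 was the lowest library (log2 ratio of odds, KU55933 over vehicle, 0.21 ± 0.40 SE, edgeR adjusted p = 0.951). A single transcript, ENSMUST00000211366 with 1 whole intron, held 79.6% of those counts. For the arginine- and serine-rich protein gene Rsrp1, the share was 75.4, 91.5, 86.8 and 84.2% in vehicle and 67.4, 81.2, 84.8 and 82.7% in KU55933 (adjusted p = 0.930), again with overlap and the lowest value in KU55933 1. Its only retained-intron transcript holds 8 whole introns. Arglu1, a splicing modulator and coactivator, ranged from 76.0 to 83.9% in vehicle and from 61.3 to 83.7% in KU55933. Ncl, which encodes the nucleolar protein nucleolin, stayed between 45.0 and 51.4% in all 8 libraries.

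The SR protein gene Srsf5 had shares of 57.8, 51.1, 53.2 and 52.1% in vehicle and of 47.1, 67.8, 66.8 and 67.0% in KU55933. KU55933 2 to 4 lay above every vehicle library and KU55933 1 below every one. With all libraries the log2 ratio of odds was 0.54 ± 0.34 SE (edgeR adjusted p = 0.856). Without KU55933 1 the adjusted p was 0.0839. Without library 1 of both groups, a setting chosen after seeing the data, it was 0.0362 with a log2 ratio of 0.91. The GC and length correction gave 0.720.

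Among the other leading genes, Syne1, which encodes a giant protein of the nuclear envelope, carried the most retained-intron counts (mean 9900), 99.5% of them in 1 transcript, and its share was 37.6 to 40.3% in vehicle and 35.6 to 44.4% in KU55933. Gria2, which encodes the AMPA receptor subunit GluA2, had shares of 11.7, 19.1, 20.6 and 20.9% in vehicle and of 6.64, 17.5, 11.2 and 18.1% in KU55933 (adjusted p = 0.909). In each group library 1 was the lowest. Ank2 (ankyrin-B), Prkcb (a protein kinase C), Cpne6 and Cpne7 (calcium-dependent membrane-binding copines), Tmem178b, Stk25, Ahcyl2, Gpi1 and Ctnnb1 (β-catenin) overlapped between groups as well and did not pass the test. Itm2b, a membrane protein gene linked to familial dementias, did not overlap, at 9.86 to 23.4% against 28.9 to 31.4%, and also did not pass (log2 ratio of odds 1.14 ± 0.36 SE, edgeR adjusted p = 0.257). The annotated type says little about how much intron these genes keep. In Ank2, 95.5% of the counts came from a transcript with 1 unspliced base of 2359. In Ahcyl2, 91.8% came from a transcript with 279 of 4903, whereas the only such transcript of Tmem178b had 5977 of 6250.

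The 2 leading genes that passed were Slc17a7 and Uchl1. Slc17a7 encodes VGLUT1, the glutamate transporter of synaptic vesicles in hippocampal excitatory neurons. Its summed share was 8.40, 11.1, 5.80 and 6.58% in vehicle and 22.7, 38.1, 27.1 and 36.5% in KU55933. All treated libraries lay above all vehicle libraries. The log2 ratio of odds was 2.40 ± 0.35 SE (edgeR adjusted p = 0.00637, and 0.00364 to 0.0381 with single libraries left out). Its retained-intron transcripts were at 117 CPM ± 34 (SD, n = 4) in vehicle and 364 CPM ± 67.4 in KU55933, and its other transcripts at 1354 CPM ± 89.4 and 817 CPM ± 132. The transcript with the 231-base intron printed above carried 78.1% of the counts, at 5.55, 8.32, 2.35 and 2.60% of the gene in vehicle and 20.4, 32.3, 22.8 and 30.8% in KU55933. It passed on its own (edgeR adjusted p = 0.0171), but not when vehicle 3, vehicle 4 or KU55933 2 was left out (adjusted p up to 0.0651).

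Uchl1 encodes a deubiquitinase that is abundant in neurons. The summed share was 27.3, 39.8, 15.9 and 17.8% in vehicle and 65.3, 70.4, 62.7 and 75% in KU55933. There was no overlap, and the log2 ratio of odds was 2.78 ± 0.42 SE (edgeR adjusted p = 0.00754, and 0.00673 to 0.0392 with single libraries left out). Nearly all of it, 98.4%, came from ENSMUST00000176015, which begins inside an intron and has 52 unspliced bases of 980. The level of its retained-intron transcripts went from 96.7 CPM ± 41.5 to 196 CPM ± 22.6 and that of the other transcripts from 288 CPM ± 48.4 to 91.2 CPM ± 19.7 (SD, n = 4 each).

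**Figure D2:**
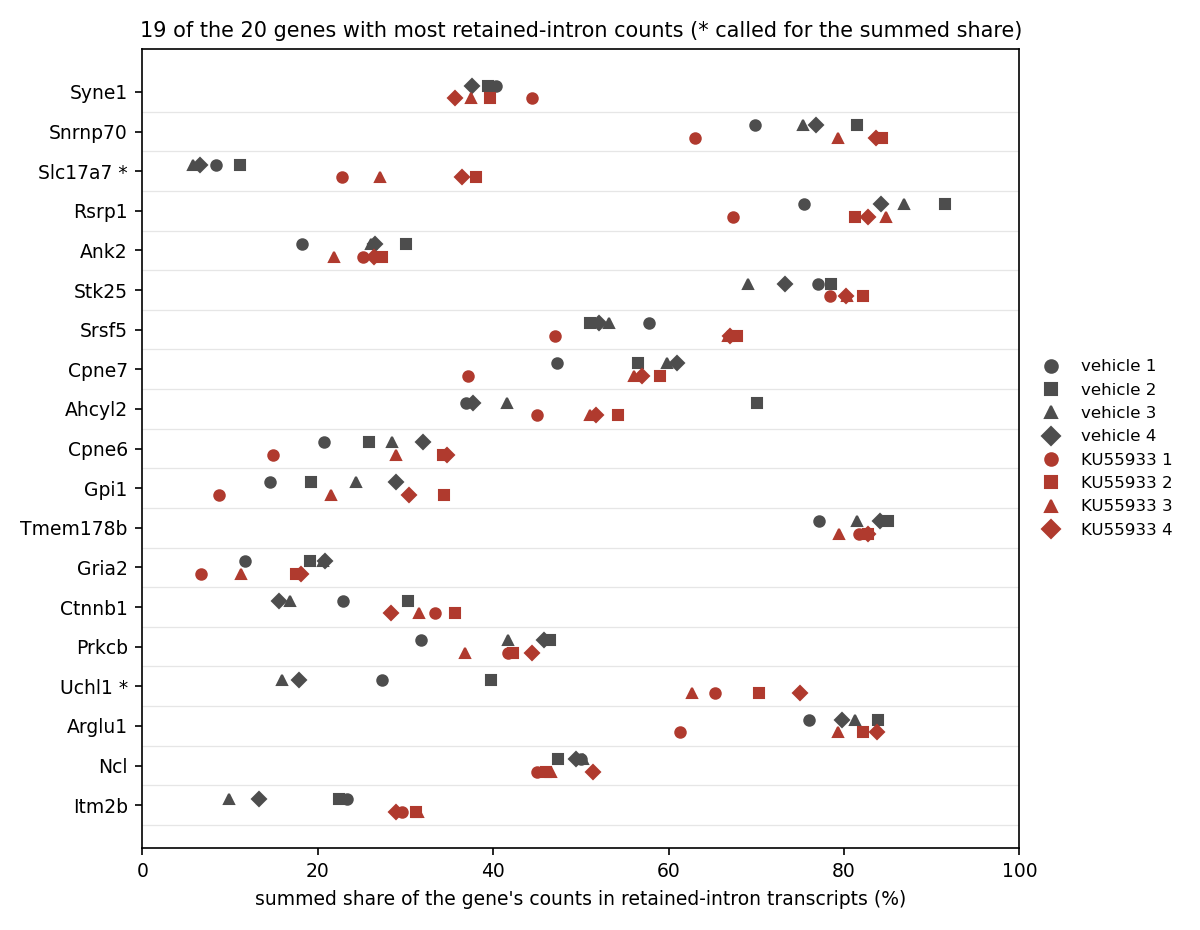
Summed share of the gene's estimated counts in retained-intron transcripts, in percent, for 19 of the 20 genes with the most retained-intron counts; each symbol is 1 library. Only in Slc17a7 and Uchl1, marked with an asterisk, did the difference pass the edgeR test, and KU55933 1 is the lowest library in genes such as Srsf5 and Cpne7.

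For the comparison of shares transcript by transcript, 10360 retained-intron transcripts had at least 10 counts on each side (the transcript and the rest of its gene) in at least 4 libraries, and 7886 did not and were not tested. At an edgeR adjusted p under 0.05, 99 rose in share and 81 fell. These are 0.956% and 0.782% of the tested retained-intron transcripts, below the 1.54% higher and 2.15% lower of all 40873 transcripts tested. Protein-coding transcripts had 424 higher and 695 lower of 24125, and nonsense-mediated decay transcripts 36 and 32 of 2814. The median log2 ratio of odds was -0.14 over retained-intron transcripts and -0.05 over all. KU55933 1 was the lowest library for 56.9% of these retained-intron transcripts. For the shares summed per gene, the median went from -0.14 to 0.12 without that library. The groups did not overlap, with KU55933 higher, in 392 retained-intron transcripts (3.78%, against 6.64% of all transcripts) and with KU55933 lower in 405 (3.91%, against 7.83%). An edgeR test of each transcript against its gene's average (diffSpliceDGE) called 72 and 97.

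The calls for single transcripts depended on single libraries. There were 60 rises without vehicle 1, 28 without vehicle 3, 36 without vehicle 4, 32 without KU55933 2, 50 without KU55933 3 and 56 without KU55933 4. There were 19 falls without vehicle 1, 29 without vehicle 2, 7 without vehicle 3, 7 without vehicle 4 and 38 without KU55933 2. Leaving out KU55933 1, the library that stood apart, gave 73 and 56. Leaving out library 1 of both groups gave 26 and 22, of which 19 and 13 were among the calls with all libraries. Leaving out KU55933 1 and 2, the libraries with the highest choroid plexus markers, gave 4 and 11. A correction of each library for transcript GC content and length gave 48 and 44, of which 42 and 39 were among the calls without it.

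Among the 10 largest rises, an Ints1 transcript (ENSMUST00000197156), from the gene of a subunit of the Integrator complex that processes RNA ends, had no count in any vehicle library and 51, 80, 80 and 33 counts in KU55933. Set against what 3 counts in each vehicle library would give, its mean share of 4.30% in KU55933 was at least 56.3-fold higher (edgeR adjusted p = 0.00842). An Ampd2 transcript (ENSMUST00000133129), from an AMP deaminase gene, likewise had no count in vehicle and 19, 74, 73 and 28 in KU55933, at least 27.0-fold higher (adjusted p = 0.0170). For both, a setting without a treated library left fewer than 4 libraries with 10 counts and so gave no test. Both met the count minimum only through the KU55933 libraries, so their p-values describe a contrast that also admitted them to the test.

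The Rgs14 transcript printed above belongs to a regulator of G protein signalling that is concentrated in CA2 neurons of the hippocampus. It took 0, 3.14, 0.794 and 0.626% of the gene in vehicle and 30.5, 45.7, 25.2 and 23.7% in KU55933. Every treated library was more than 20 percentage points above every vehicle library (log2 ratio of odds 6.04 ± 1.22 SE, edgeR adjusted p = 0.0392). The adjusted p rose above 0.05 without vehicle 3, vehicle 4 or each single KU55933 library (at most 0.13) and was 0.0527 with the GC and length correction, while the summed share of the gene, at 1.72% ± 1.41 and 31.8% ± 10.2 (SD, n = 4 each), kept an adjusted p of 0.0217 or less.

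A Car11 transcript (ENSMUST00000211259), from a gene of a carbonic anhydrase-related protein, was at 1.17, 0, 0 and 0% in vehicle and at 9.13, 10.5, 9.86 and 9.97% in KU55933 (edgeR adjusted p = 0.0438, lost without every library but vehicle 1, at most 0.134, and 0.0803 with the GC and length correction). Twf2 (twinfilin, an actin regulator) was at 0, 0, 0.339 and 1.04% and then at 17.9, 14.8, 16.2 and 10.9% (adjusted p = 0.0188, lost without vehicle 3 or KU55933 2, at most 0.0761). The remaining rises were Slc35c2, Babam2, Rps13, Ap2a1 and Aldoa. Of these, Slc35c2, a nucleotide-sugar transporter family gene, kept its call in every setting without 1 library that could be tested (0.132% ± 0.184 and 7.81% ± 2.35, SD, n = 4 each, adjusted p = 0.0148). Babam2 lost it without vehicle 1, vehicle 3 or each single KU55933 library (adjusted p at most 0.0983), and Rps13 without vehicle 2 to 4 or KU55933 1, 2 or 4 (at most 0.0889). Ap2a1 and Aldoa lost it without vehicle 3 or vehicle 4 (at most 0.0788 and 0.0599). For Slc35c2, Ap2a1 and Aldoa, leaving out a KU55933 library gave no test, and they met the count minimum only through the KU55933 libraries. Without library 1 of both groups their edgeR adjusted p was 0.0603, 0.0856 and 0.0782.

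Among the 10 largest falls, 5 transcripts had no count in any KU55933 library. They belonged to Nos1ap (an adaptor of neuronal nitric oxide synthase, 242, 39, 196 and 216 counts in vehicle), Wdr4 (a partner of a tRNA methyltransferase, 132, 130, 131 and 53), Srrt (an RNA-processing protein bound to the cap-binding complex, 28, 100, 78 and 70), Fdx2 (a mitochondrial ferredoxin, 30, 20, 124 and 95) and Ckb (brain creatine kinase, 56, 57, 43 and 40). Set against 3 counts in each KU55933 library, these vehicle shares were at least 37.5-fold, 25.3-fold, 15.9-fold, 13.1-fold and 6.73-fold higher. The edgeR adjusted p was 0.0245, 0.0106, 0.0144, 0.0341 and 0.00546. That of Fdx2 rose above 0.05 without each single KU55933 library (at most 0.0645), and leaving out a vehicle library gave no test for these 5. All 5 met the count minimum only through the vehicle libraries, so their p-values describe a contrast that also admitted them to the test.

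Tiam1 encodes an exchange factor that activates the GTPase Rac at synapses. Its transcript ENSMUST00000089084 took 7.74, 4.87, 9.68 and 10.3% of the gene in vehicle and 0.178, 0, 0 and 0.205% in KU55933. The lowest vehicle library was far above the highest treated one (log2 ratio of odds -6.70 ± 0.94 SE, edgeR adjusted p = 0.0122, and 0.0208 to 0.0265 without single KU55933 libraries, the settings without a vehicle library giving no test). The other transcripts of the gene were at 136 CPM ± 16.6 and 126 CPM ± 17.1 (SD, n = 4 each). Rap1gap, which turns off the GTPase Rap1, fell from 4.54% ± 1.99 to 0.0111% ± 0.0223 for ENSMUST00000144059 (adjusted p = 0.00388), and the ribosomal protein gene Rpl10a from 2.01% ± 0.388 to 0.0349% ± 0.0697 for ENSMUST00000128758 (adjusted p = 0.00967). Sipa1l3 and Gnao1, the latter a G protein α subunit of neurons, also fell (adjusted p = 0.0239 and 0.0347). Sipa1l3 lost its call without every library but vehicle 2 and KU55933 1 (at most 0.0911), and Gnao1 without each single KU55933 library (at most 0.0922) and with the GC and length correction (0.0679). For Rap1gap, Rpl10a and Gnao1, leaving out a vehicle library gave no test. Like Tiam1, they met the count minimum only through the vehicle libraries.

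**Figure D3:**
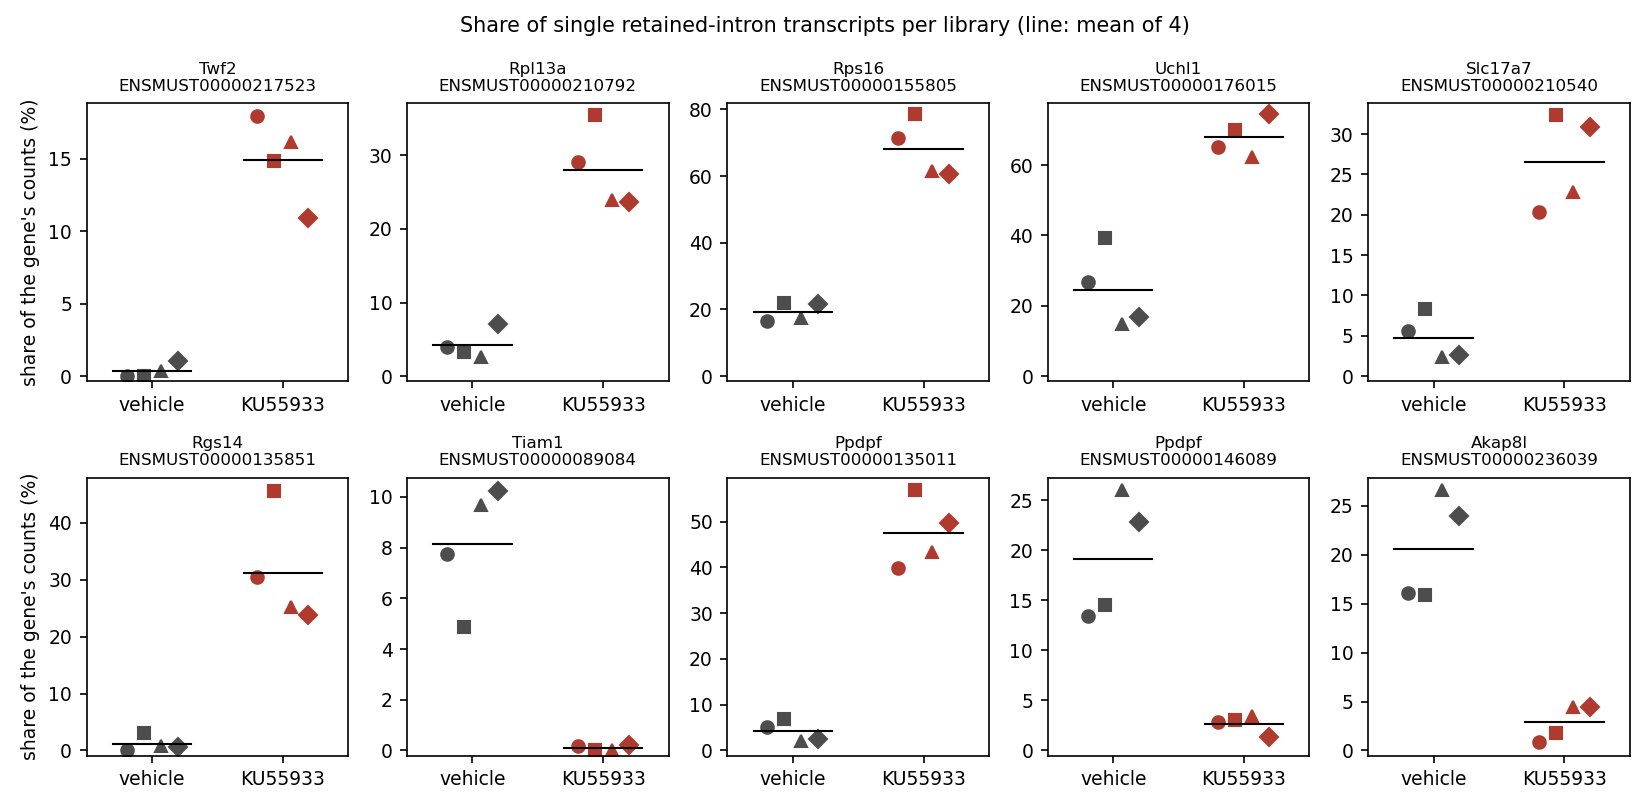
Share of the gene's estimated counts, in percent, for 10 retained-intron transcripts that rose or fell; each symbol is 1 library (circle 1, square 2, triangle 3, diamond 4) and the line is the mean of 4. In all 10 panels the vehicle and KU55933 libraries do not overlap, for example 1.04% at most against 10.9% at least for Twf2. The 10 were chosen with their values known, some by a rule that required no overlap, so the separation largely follows from the choice. Over all transcripts tested, the groups did not overlap in 6.64% with KU55933 higher and in 7.83% with it lower.

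Counts estimated for isoforms that share most of their bases rest on few distinguishing bases. The retained-intron transcripts of each gene were therefore also summed, which removes exchange of counts among them. Exchange with the gene's other transcripts remains in the sums, and its part was not tested. Of 5636 genes tested, 45 had a higher summed share in KU55933 (0.798% of genes tested) and 21 a lower one (0.373%). In all 66 the groups did not overlap, which the calls, made on the same shares, make likely. Over all genes tested the groups did not overlap in 225 with KU55933 higher (3.99%) and in 150 with it lower (2.66%). With single libraries left out, the higher genes numbered 24 without vehicle 1, 22 without vehicle 2, 14 without vehicle 3, 26 without vehicle 4, 22 without KU55933 2 and 71 without KU55933 1. The lower genes numbered 11, 5, 1 and 6 without vehicle 1 to 4 and 13 without KU55933 2. Without library 1 of both groups there were 84 and 45, of which 39 and 17 were among the 45 and 21, and without KU55933 1 and 2 there were 15 and 5. The GC and length correction gave 22 and 9, of which 21 and 8 were among those called without it.

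In the 45 genes with a higher share, the median share went from 7.97 to 24.0%. The retained-intron transcripts had a higher mean CPM in KU55933 in 42 of them, with a median ratio of 2.03, and the other transcripts of the gene had a lower mean CPM in all 45, with a median ratio of 0.480. In the 21 genes with a lower share, the median share went from 7.46 to 1.43%, the retained-intron transcripts had a median CPM ratio of 0.170, and the other transcripts had one of 0.997, lower in 11 of the 21. These ratios come from the same counts as the calls and describe them.

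**Figure D4:**
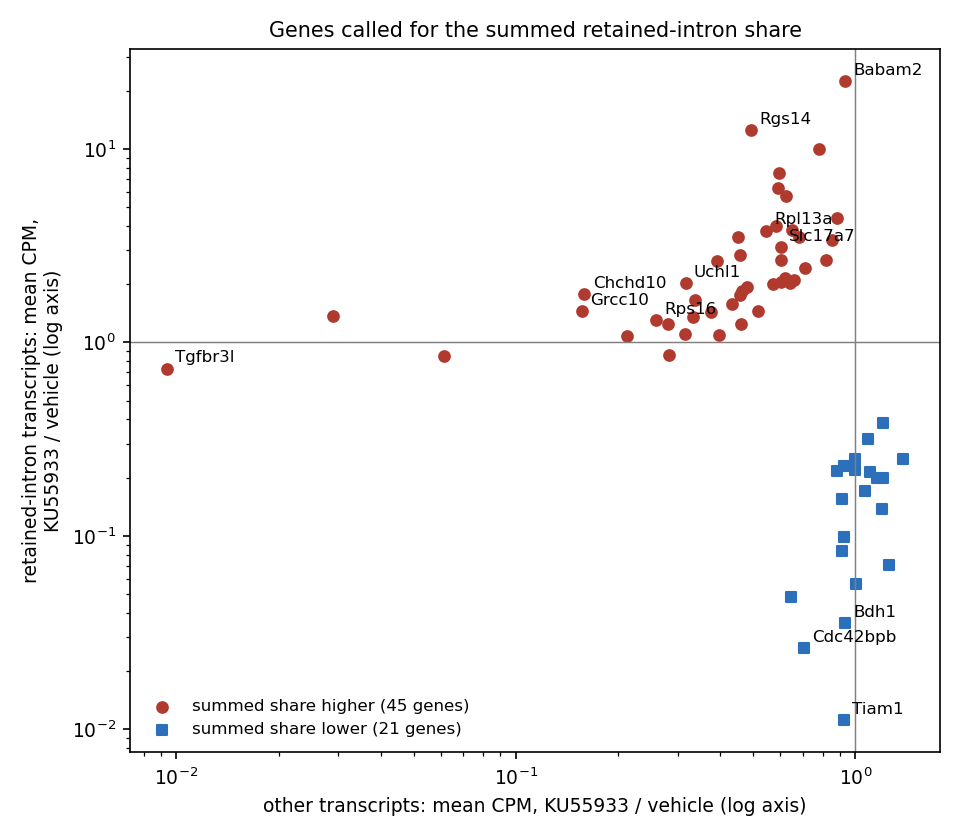
Ratio of mean CPM, KU55933 over vehicle, of the retained-intron transcripts (vertical, log axis) against that of the other transcripts of the gene (horizontal, log axis), for the 45 genes with a higher and the 21 genes with a lower summed share. All 45 higher genes lie to the left of 1 on the horizontal axis (median 0.480), whereas the 21 lower genes lie on both sides of 1 (median 0.997) and all below 1 on the vertical axis.

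Of the 45 genes, 13 passed in all 8 settings that left out 1 library, among them Slc17a7, Uchl1, Rgs14, Kcnab3, Chchd10, Grcc10, Rpl13a, Rps16, Rplp2, Fscn1, Dnajc19 and Babam2. Tgfbr3l passed in the 4 settings without a KU55933 library and was not tested without a vehicle library. Its other transcripts met the count minimum only through the vehicle libraries, so its p-values describe a contrast that also admitted it to the test. Kcnab3 encodes an auxiliary subunit of voltage-gated potassium channels. Its summed share was 20.3, 33.5, 16.9 and 21% in vehicle and 56.4, 64.3, 64.1 and 71.8% in KU55933. The groups were far apart (log2 ratio of odds 2.64 ± 0.38 SE, edgeR adjusted p = 0.00619). The level of its retained-intron transcripts went from 4.29 CPM ± 1.11 to 12.2 CPM ± 2.07, and that of the other transcripts from 14.7 CPM ± 2.53 to 6.74 CPM ± 0.803 (SD, n = 4 each).

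Chchd10, a protein of mitochondrial cristae, had shares of 23.0, 24.8, 9.89 and 9.74% in vehicle and of 68.7, 70.4, 58.7 and 70.7% in KU55933 (edgeR adjusted p = 0.00448). Vehicle 1 and 2 were higher than vehicle 3 and 4, and all 4 were below the treated libraries. Grcc10 rose from 24.1% ± 8.40 to 74.0% ± 4.21 (adjusted p = 0.00367). The actin-bundling protein gene Fscn1 rose from 0.451% ± 0.0535 to 3.08% ± 1.52 (adjusted p = 0.00637), the mitochondrial import gene Dnajc19 from 0.910% ± 0.906 to 11.4% ± 2.33 (adjusted p = 0.00821), and Babam2, a subunit of the BRCA1-A complex of the DNA damage response, from 0.379% ± 0.470 to 8.54% ± 2.04 (adjusted p = 0.00619; SD, n = 4 for each). In Tgfbr3l the share was already 86.1% ± 4.08 and rose to 99.4% ± 1.11, with 0.754 CPM of other transcripts in vehicle. Its adjusted p was 0.107 with the GC and length correction, and the other 13 genes kept an adjusted p of 0.0485 or less.

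Ribosomal protein genes were looked at together after 4 of them, Rpl13a, Rplp2, Rps16 and Rps13, were seen among the 45. They were 63 of the genes tested, with 4 higher, 0 lower by edgeR (1 at an unadjusted p under 0.05, 0 by DESeq2 and limma), beside 0.798% higher and 0.373% lower of all genes, and a median log2 ratio of odds of 0.06 against -0.14 over all genes. Without KU55933 1 the median over all genes was 0.12, and that of the ribosomal protein genes is not given here. Rps16 had shares of 46.8, 47.2, 45.9 and 47% in vehicle and of 79.0, 88.8, 78.9 and 80.5% in KU55933 (log2 ratio of odds 2.39 ± 0.34 SE, edgeR adjusted p = 0.00619). The vehicle libraries lay within 2 percentage points of each other and below every treated library. Within the gene, ENSMUST00000155805, which begins inside an intron, rose from 19.3% ± 2.88 to 68.0% ± 8.59 (adjusted p = 0.00535), whereas ENSMUST00000152918, with 1 whole intron, was at 27.4% ± 2.53 and 13.7% ± 5.81 without passing (adjusted p = 0.104; SD, n = 4 for each). Rpl13a was at 5.06, 4.85, 3.90 and 8.46% in vehicle and at 29.9, 37.2, 25.2 and 25.4% in KU55933 (edgeR adjusted p = 0.00367). These genes have many near-identical pseudogene copies, so their counts are uncertain.

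Among the 21 genes with a lower share, BC003965 passed in all 8 settings that left out 1 library, and Tiam1 in the 4 without a KU55933 library, since leaving out a vehicle library gave no test of it. The retained-intron counts of Tiam1 met the count minimum only through the vehicle libraries, so its p-values describe a contrast that also admitted it to the test. BC003965 was at 26.7, 36.4, 34.3 and 30.6% in vehicle and at 11.1, 5.99, 5.34 and 6.35% in KU55933 (log2 ratio of odds -2.64 ± 0.35 SE, edgeR adjusted p = 0.00448), so that even KU55933 1, the highest treated library, was below every vehicle library. Mrpl57, a mitochondrial ribosomal protein gene, fell from 27.4% ± 2.07 to 8.47% ± 1.62 (SD, n = 4 each, adjusted p = 0.00759). The phosphatase gene Pgp fell from 26.2% ± 5.86 to 6.62% ± 2.14 (SD, n = 4 each, adjusted p = 0.00821). In these last 2 genes leaving out vehicle 3 raised the adjusted p to 0.0514 and 0.0586, and with the GC and length correction that of Mrpl57 was 0.0607.

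Retained-intron transcripts of 1 gene did not always move together. Ppdpf, chosen after its values were seen, had ENSMUST00000135011 at 5.18, 6.97, 2.00 and 2.58% in vehicle and 39.9, 56.9, 43.4 and 49.7% in KU55933 (log2 ratio of odds 4.53 ± 0.48 SE, edgeR adjusted p = 0.00541). ENSMUST00000146089, which keeps the 72-base intron, went the other way, with 13.4, 14.5, 26 and 22.8% in vehicle and 2.87, 3.03, 3.39 and 1.34% in KU55933 (log2 ratio of odds -3.11 ± 0.42 SE, adjusted p = 0.0108). Neither pair of groups overlapped, and both calls held with every single library left out. Akap8l, an anchoring protein of the nucleus chosen in the same way, had a falling transcript with 5 whole introns, ENSMUST00000236039, from 20.6% ± 5.44 to 2.89% ± 1.82 (adjusted p = 0.0223, lost without vehicle 1, 3 or 4 or KU55933 2, at most 0.0876). The Akap8l transcript with 8 whole introns, ENSMUST00000236105, was at 41.4% ± 5.02 and 35.3% ± 7.15 (adjusted p = 0.606; SD, n = 4 for each).

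The structure of the transcript, which the test did not use, differed between those that rose, those that fell and the rest. Of 10334 tested retained-intron transcripts with a known structure, 46.8% began in unspliced sequence, against 65.7% of the 99 that rose and 32.5% of the 80 that fell. A whole intron was held by 41.7% of all, 22.2% of the risers and 43.8% of the fallers. The median unspliced part was 42.2% of the length over all, 16.3% in risers and 22.4% in fallers. Starts within 50 bases of the 5′ end of the gene's protein-coding transcripts were found in 18.5% of all, 3.03% of risers and 27.5% of fallers, and ends within 50 bases of their 3′ end in 16%, 26.3% and 8.75%. These are descriptions without a test.

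Calls were most frequent where little of the transcript was unspliced. With under 10% unspliced, 34 of 1024 transcripts rose and 16 fell. With 10 to 25% the numbers were 38 and 31 of 1998, with 25 to 50% they were 22 and 20 of 3082, and with 50% or more they were 5 and 13 of 4230. Several of the largest changes named above were of this kind: the Ints1 transcript had 2 unspliced bases of 694, the Tiam1 transcript 30 of 3495, the Wdr4 transcript 18 of 1300 and the Rap1gap transcript 18 of 1022, while the Rps13 transcript had none of 428. For such transcripts the share depends on how the authors' counting divided reads that fit several isoforms, whose part in the result was not tested.

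**Figure D5:**
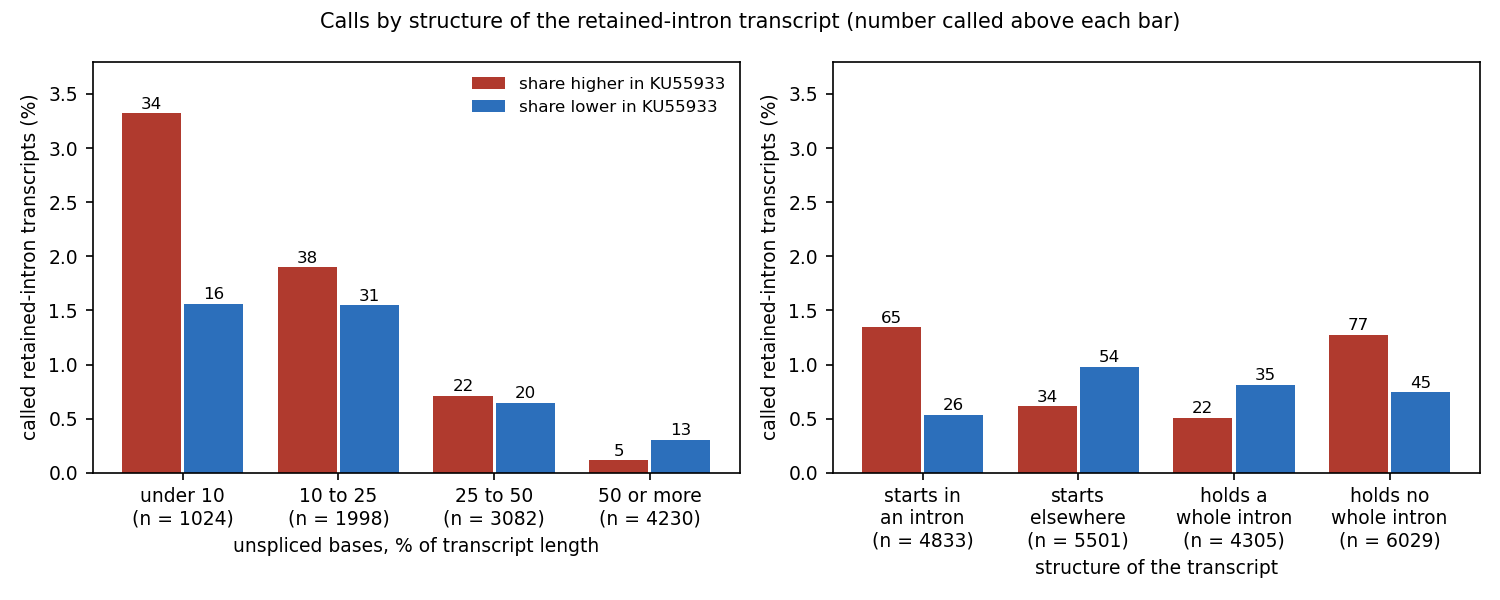
Percent of tested retained-intron transcripts called higher (red) or lower (blue) in share, by the unspliced percent of their length (left) and by structure (right); the number called stands above each bar and the number tested under it. Rises went from 3.32% of transcripts with under 10% unspliced bases to 0.118% of those with 50% or more.

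Base composition relative to the rest of the gene moved with the share as well. The GC content of a transcript minus that of the rest of its gene had a median of -1.17 percentage points over the tested transcripts, -2.76 in risers and 4.19 in fallers. Across the 10334 transcripts, which share libraries and genes and are not independent, Spearman's rho between this difference and the log2 ratio of odds was -0.30, and with the transcript's own GC content it was 0.03.

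As a level, that is, scaled to the whole library rather than to the gene, 66 of 10256 tested retained-intron transcripts were higher in KU55933 and 168 lower (edgeR adjusted p under 0.05). The background over 45343 transcripts was 1.06% higher and 5.7% lower, and the retained-intron transcripts were at 0.644% and 1.64%, with a median log2 change of -0.17 against -0.07 over all. The GC and length correction changed the balance to 48 higher and 37 lower. Without KU55933 1 and 2 the numbers were 10 and 31. With single libraries left out, the higher calls numbered 27 without vehicle 3, 36 without vehicle 4, 26 without KU55933 2 and 40 without KU55933 3, and the lower calls 59 without vehicle 3, 69 without vehicle 4, 95 without KU55933 1 and 76 without KU55933 2. The Rpl13a transcript rose by 2.20 on the log2 scale (adjusted p = 0.00480), and the Ppdpf transcript with the 72-base intron fell by 3.57 (adjusted p = 0.00414).

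Genes whose retained introns are known to be regulated were counted against the 0.798% of all genes that were called higher and 0.373% lower, shares at which lists of this size are expected to hold few calls or none. Of 14 tested genes in a list of such genes, 0 passed in either direction with edgeR (0 also at an unadjusted p under 0.05 and by DESeq2 and limma), and their median log2 ratio of odds was -0.24 against -0.14 over all genes (0.04 against 0.12 without KU55933 1). Clk1 had shares of 55.5, 57.2, 56.8 and 56.8% in vehicle and of 41.6, 57.1, 54.8 and 57.2% in KU55933. For Clk4 they were 51.9, 50, 52.5 and 51% and then 36.1, 53.7, 53.3 and 54.9%. In both kinases 7 libraries lay within a few percentage points of each other and KU55933 1 lay well below them (adjusted p = 0.940 and 0.970). Clk3 was at 58.0 to 61.7% in vehicle and 45.9 to 71.9% in KU55933. Of 8 splicing kinases and of 10 SR proteins tested, 0 passed by edgeR, DESeq2 or limma (1 and 0 at an unadjusted edgeR p under 0.05), and KU55933 1 was the lowest library in 7 and in 10 of them.

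In the list of spliceosome and speckle genes, 1 of 35 tested genes passed, higher in KU55933, beside 0.798% of all genes. This was Snrpa, which encodes protein A of the U1 particle, at 5.0, 5.62, 4.07 and 3.46% in vehicle and 10.2, 17.8, 14.1 and 13.1% in KU55933 without overlap (log2 ratio of odds 1.75 ± 0.34 SE, edgeR adjusted p = 0.0256). Leaving out single libraries gave 0.0086 to 0.132, only the setting without KU55933 1 kept the call, and the GC and length correction gave 0.124. Ccnl2, a cyclin of nuclear speckles, was at 80.4 to 85.6% in vehicle and 85.3 to 91.3% in KU55933, and Rbm5 at 55.3 to 65.8% and 33.7 to 65.5%, without passing. Of 23 hnRNP and related genes, 0 passed by edgeR, DESeq2 or limma (2 at an unadjusted edgeR p under 0.05), and Hnrnpa2b1 was at 16.8, 17.8, 18.2 and 18.8% in vehicle and 7.0, 21.8, 20.4 and 22.1% in KU55933. Hnrnpm passed as higher without KU55933 1.

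Synaptic and repair genes were examined by their summed share. Of 20 excitatory synapse genes tested, 0 passed by edgeR or limma (6 at an unadjusted edgeR p under 0.05), and DESeq2 called Grik5 higher and Grin2a lower. In 6 the groups did not overlap, 4 with KU55933 higher and 2 with it lower, against 3.99% and 2.66% of all genes tested. One of the 4 was Iqsec1, an exchange factor at excitatory synapses, at 8.88, 19.5, 15.1 and 16% in vehicle and 28.7, 29.0, 25.2 and 25.3% in KU55933 (adjusted p = 0.207). Of 18 inhibitory synapse and chloride genes and of 15 DNA damage genes, 0 passed by edgeR, DESeq2 or limma (1 and 0 at an unadjusted edgeR p under 0.05). In these 2 lists Wnk1 was at 26.1 to 42.6% and 31.1 to 40.6%, and Trrap at 7.53 to 17.6% and 7.06 to 17.4%, in vehicle and KU55933. Of the nuclear noncoding RNAs listed, Snhg11 alone was in the table, at 0.816 to 1.17% and 0.693 to 1.05%.

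The study's own genes were examined individually. Slc12a5, which encodes KCC2, had summed shares of 2.23, 11.5, 14.5 and 14.4% in vehicle and of 2.17, 7.52, 3.35 and 4.74% in KU55933. Vehicle 2 to 4 were above all treated libraries and vehicle 1 was as low as KU55933 1, so the groups overlapped (log2 ratio of odds -1.27 ± 0.63 SE, edgeR adjusted p = 0.654). Without library 1 of both groups, a setting chosen after seeing the data, the adjusted p was 0.0362 and the log2 ratio -1.57. The summed share did not pass with any single library left out (adjusted p 0.0889 to 0.9995, and 0.644 without KU55933 1). The GC and length correction gave 0.532. The retained-intron transcripts were at 48.9 CPM ± 27.6 and 15.8 CPM ± 7.90, and the other transcripts at 405 CPM ± 22.0 and 340 CPM ± 21.5 (SD, n = 4 each). Most of these counts came from ENSMUST00000137302, which holds 1 whole intron and ends near the 3′ end of the gene.

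Of the kainate receptor genes, Grik1, Grik2 and Grik5 carried retained-intron transcripts. Grik5 was at 0.895, 1.59, 1.76 and 1.74% in vehicle and at 3.34, 7.72, 2.93 and 4.91% in KU55933, with no overlap (log2 ratio of odds 1.64 ± 0.40 SE, edgeR adjusted p = 0.0776). With the GC and length correction the log2 ratio for Grik5 was 0.10 (adjusted p = 0.927), and with single libraries left out its adjusted p was 0.0501 to 0.213. One of its transcripts, ENSMUST00000206132, passed on its own, at 0.650% ± 0.236 and 2.63% ± 1.10 (SD, n = 4 each, adjusted p = 0.0427), and the call was lost without every library but KU55933 3, with adjusted p up to 0.137. With the GC and length correction its adjusted p was 0.577. Its log2 change as a level was 0.92 (adjusted p = 0.231), and the other Grik5 transcripts were at 248 CPM ± 27.6 and 123 CPM ± 14.5 (SD, n = 4 each). Grik2 was at 21.5, 29.5, 28.8 and 28.7% in vehicle and 9.35, 26.7, 24.1 and 32.4% in KU55933 (adjusted p = 0.933), and Grik1 at 4.19 to 10.5% and 7.47 to 9.85% (adjusted p = 0.950). Atm had a mean of 4.25 retained-intron counts, 0.373% ± 0.301 and 0.436% ± 0.240 of the gene (SD, n = 4 each), too few to be tested.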

How the data were processed

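RNA-seq libraries of 4 KU55933 and 4 vehicle hippocampi were grouped by their labels. The deposited table holds expected counts (estimated counts per transcript), named by the authors as salmon counts. The submitters' processing notes list Salmon 1.4.0, FastQC 0.11.9, DESeq2 1.32.0 and build GRCm39 without their roles. Its values are whole numbers, and whether they were rounded or filtered is not given in the sources used here. Libraries were made with a kit that keeps strand, TruSeq Stranded mRNA, per the labels. Library totals were 34190440 to 46630341 estimated counts, and no pair of libraries of the same group agreed within sampling noise.

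Each transcript's counts were set against the rest of its gene in 16 columns, with a term per library, and tested with edgeR (quasi-likelihood, robust, two-sided), with Benjamini-Hochberg adjustment over all features tested and a threshold of 0.05 (edgeR 4.0.16, limma 3.58.1, R 4.3.3). A feature needed 10 counts on each side in 4 libraries. The same test used summed retained-intron counts per gene, and levels were tested after TMM scaling and filterByExpr. A log2 ratio of odds is KU55933 over vehicle. Single values per library were compared by exact permutation. The scripts were tested on simulated data. Introns, lengths, GC content and sequences came from GENCODE mouse release 21 (GRCm38), which matched 18205 of 18246 retained-intron transcripts by identifier, and no coordinate was converted.

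Named were the 20 genes with most retained-intron counts, the 10 largest rises and 10 largest falls among called transcripts with a mean of 20 counts and no overlap (leaving out provisional symbols), up to 4 members of each of 9 gene lists (the 3 with most retained-intron counts and called ones), and the study's genes (Atm, Slc12a5 and the kainate receptor genes) where they carry such a transcript. Other genes named were chosen after their values were seen. The members and lists were chosen with earlier results of these data known. Alternatives were other count minimums, DESeq2 (1.42.0), limma on log2 odds with a pseudocount of 0.5, diffSpliceDGE, RLE scaling, a GC and length offset, a replicate block and libraries left out. Some items that these rules name are not reported here.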

Additional observations from a re-analysis of the deposited data

Results flagged for a closer look

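In each group of 4 libraries, the highest or lowest value of a named gene or transcript was listed here where its gap to the nearest other library was larger, relative to the group's range, than Dixon's critical value for 4 values. This held in 16 of 128 groups, and chance alone gives about 1 in 20, or 6.4. In 7 of the 16 the other 3 libraries were at 0, so the gap equals the whole range by construction and that chance value does not apply.

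In 6 of the 16 the library was KU55933 1. It was low for the summed share of Srsf5 (47.1%, others 66.8 to 67.8%), Cpne7 (37.2%, others 56.0 to 59.0%), Clk1 (41.6%, others 54.8 to 57.2%), Clk4 (36.1%, others 53.3 to 54.9%) and Hnrnpa2b1 (7.0%, others 20.4 to 22.1%), and it alone had counts of the Sipa1l3 transcript (0.281%) among the treated libraries.

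Vehicle 1 was low for Rbm5 (55.3%, others 64.6 to 65.8%) and Grik2 (21.5%, others 28.7 to 29.5%) and high for Ccnl2 (85.6%, others 80.4 to 80.7%). It was the only vehicle library with counts of the Car11 (1.17%), Rps13 (0.411%) and Ap2a1 (0.0671%) transcripts. Vehicle 2 was high for Ahcyl2 (70.05%, others 36.9 to 41.6%) and alone had counts of the Aldoa transcript (0.00849%). KU55933 4 alone among the treated libraries had counts of the Rap1gap transcript (0.0446%), and KU55933 2 of the Rpl10a transcript (0.139%).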

How the results depend on the processing

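Retained-intron transcripts with a higher and a lower share (99 and 81) numbered 42 and 33 with no count minimum, 261 and 256 by DESeq2, 48 and 44 with the GC and length offset, 188 and 150 at an adjusted p of 0.1, 4 and 11 without KU55933 1 and 2, 26 and 22 without library 1 of both groups (chosen after seeing the data), and 28 to 73 and 7 to 61 with single libraries left out. Genes with a higher and a lower summed share (45 and 21) numbered 89 and 54 by DESeq2, 22 and 9 with the offset, 15 and 5 without KU55933 1 and 2, 84 and 45 without library 1 of both groups, and 14 to 71 and 1 to 27 with single libraries left out, and 38 were lower at an adjusted p of 0.1. Levels (66 higher and 168 lower) gave 159 and 313 by DESeq2, 37 lower with the offset, 10 and 31 without KU55933 1 and 2, and 26 to 68 and 59 to 160 with single libraries left out. The difference in the retained-intron percent ranged from -0.447 to 0.28 with single libraries left out and was 0.00486 without library 1 of both groups. That of the mean share over genes was -0.34 as a median over genes, -0.0898 per kilobase, and -0.471 to 0.989 with single libraries left out. The cause of these changes was not tested.

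The replicate numbers did not clearly pair the libraries: deviations of libraries with the same number correlated at 0.135, 0.026, -0.0088 and 0.0043. The 0.135 of number 1 was the highest between any vehicle and KU55933 library, but not every library correlated best with its own number. Whether libraries of the same number were handled together was not tested. With a replicate block, edgeR called 0 higher and 0 lower transcripts by share (480 and 672 at an unadjusted p under 0.05), 84 and 60 genes, and 29 and 112 transcripts by level. The block leaves the 2 differences per library at -0.172 and 0.0894 by construction, so only their p-values could change. Exact permutation within replicate numbers gave p = 0.625 and p = 0.875. Grik5 passed with the block (adjusted p = 0.0136) and by DESeq2 (0.00726). It did not pass in the main edgeR test (0.0776), with the GC and length offset (0.927) or with any single library left out (0.0501 to 0.213).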
